A study of Homo sapiens with 5 samples.

Results

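The RAB27 and RAB3 secretory vesicle machinery was followed as a set of 10 genes of the 23459 genes in the deposited count table: the small GTPases RAB27A, RAB27B, RAB3A, RAB3B and RAB3D, their synaptotagmin-like effectors SYTL1, SYTL2, SYTL4 and SYTL5, and the priming factor UNC13D (Munc13-4). The set was selected on the measured counts of RAB27B, which were higher in the libraries with raised JUN, so that the difference in RAB27B is a description and carries no test here. All 10 genes were found by Entrez identifier. An expression filter on low counts kept 6 of them, RAB27A, RAB27B, RAB3D, SYTL2, SYTL4 and UNC13D, among 13616 genes tested in all, and RAB3A, RAB3B, SYTL1 and SYTL5 fell under it.

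The samples came from MCF10A SAM cells. MCF10A, a non-tumorigenic mammary epithelial line that grows without limit, was the parent, and its SAM (Synergistic Activation Mediator) derivatives were picked as single clones that carry the catalytically dead activator dCas9-VP64 and the helper fusion MCP-p65-HSF1, so the controls hold both activators as well. The study asked how raised JUN alters transcription in these cells. One group, NTC, received a non-targeting control guide (3 libraries), and the other, sgJUN#1, a guide directed to the promoter of JUN (2 libraries). Total RNA was read by 3′ mRNA sequencing, in which each transcript is counted near its 3′ end, so a count depends little on transcript length. The comparison is between 2 guides in one engineered line, without a second JUN guide, and the study calls its replicates biological but gives fewer of them for this comparison than the labels list for NTC. The labels do not say how the libraries relate to separate cultures, so that p-values measure only the spread between these libraries.

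RAB27 and RAB3 proteins are small GTPases that sit on secretory granules, lysosome-related organelles and multivesicular endosomes and, in the GTP-bound state, recruit effectors that tether the vesicle to the plasma membrane or to the actin cortex. SYTL proteins bind RAB27 through an N-terminal domain and membranes through C2 domains, while UNC13D primes docked granules for fusion by SNARE proteins. RAB27A and RAB27B are best known for melanosome transport, cytotoxic granule release and the secretion of exosomes, and in epithelial cells for apical and regulated secretion. JUN, the gene targeted by the guide, encodes a basic leucine zipper subunit of the transcription factor AP-1.

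RAB27B lies on the forward strand at chr18:52385091-52562747 of build GRCh37, the build equivalent to the hg19 genome named for these files, and RAB27A on the reverse strand at chr15:55495164-55611311. The sequences before both RefSeq starts of RAB27B, the member the description turns on, and before the first of 5 RefSeq starts of its paralog RAB27A are shown, since letters of the AP-1 motif were looked for there. Each is the strand of the gene, 5′ to 3′, ends at the base before the start, was taken from RefSeq promoter windows (GRCh38.p14) and was found once, without a mismatch, in GRCh37. Capitals mark the AP-1 letters TGANTCA.
RAB27B start 1, chr18:52384838-52385087 (+): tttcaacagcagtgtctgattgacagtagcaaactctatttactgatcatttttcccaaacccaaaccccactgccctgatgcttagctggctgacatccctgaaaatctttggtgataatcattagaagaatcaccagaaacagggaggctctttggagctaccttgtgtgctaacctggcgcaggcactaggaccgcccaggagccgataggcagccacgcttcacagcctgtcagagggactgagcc
RAB27B start 2, chr18:52495458-52495707 (+), inside the span of the gene: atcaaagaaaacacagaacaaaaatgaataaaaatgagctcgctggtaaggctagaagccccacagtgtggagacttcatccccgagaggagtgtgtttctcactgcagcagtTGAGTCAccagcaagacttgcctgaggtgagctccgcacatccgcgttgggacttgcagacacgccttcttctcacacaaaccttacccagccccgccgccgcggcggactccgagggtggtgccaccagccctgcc
RAB27A start 1, chr15:55611322-55611571 (-): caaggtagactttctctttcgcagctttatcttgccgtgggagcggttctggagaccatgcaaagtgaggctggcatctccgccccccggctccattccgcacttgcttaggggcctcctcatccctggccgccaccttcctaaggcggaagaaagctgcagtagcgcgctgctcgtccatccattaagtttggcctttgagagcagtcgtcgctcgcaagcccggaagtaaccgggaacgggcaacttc

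Of these 3 stretches, the window of RAB27B start 2 alone holds a match, TGAGTCA, beginning at position -137 from the start, while 2 other RAB27A starts have one in their windows. Windows of 300 bases, 250 before the start and 50 after it, were available for 15 starts of 8 members, and no window was matched to SYTL2 or UNC13D. On either strand, TGANTCA was present in 6 of the 15 windows, belonging to RAB27A, RAB27B, RAB3B, SYTL1 and SYTL5, against 7.72% of all 34943 RefSeq windows. Windows of different starts of a gene can overlap, so the 15 are not separate observations. The RAB27A matches, at positions 3 and -197 from their starts, may be the same site, which was not checked. TGACGTCA, the cyclic AMP response element to which JUN dimers can also bind, was present in 0 of 15 against 1.84%. GGAATG, the letters read by TEAD factors, was present in 4 of 15 against 14% and belonged to RAB27A, SYTL1, SYTL4 and SYTL5. These 3 motifs do not contain one another. A match describes letters and is not a measured binding site. Of the members with AP-1 letters, RAB3B, SYTL1 and SYTL5 were under the expression filter, and RAB3D and SYTL4, which were tested, had none in these windows. Whether these letters have a part in the level of any member was not tested.

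Library totals ranged from 2455627 to 4988062 counts, and the floor of 3 counts, up to which a gene with none could still be present, was 0.601 to 1.22 CPM (counts-per-million, here of the unscaled library total). JUN itself had 25.03, 36.2 and 9.32 CPM in NTC replicates 1 to 3 and 171.5 and 265.5 CPM in sgJUN#1 replicates 1 and 2. Both sgJUN#1 libraries were above all NTC libraries, in the direction the guide labels give, with a log2 fold change of 3.25 (SE 0.48) that did not pass the threshold (edgeR adjusted p = 0.0733). It did pass in 5 of 13 alternatives: DESeq2, limma-voom, a replicate block, and edgeR without NTC replicate 2 (adjusted p = 0.0144) or without NTC replicate 3 (adjusted p = 0.00121). The NTC libraries differed 3.89-fold among themselves for JUN. All CPM other than this floor, those of JUN included, are scaled to TMM library sizes. Log2 fold changes are sgJUN#1 over NTC, and the threshold is an adjusted p of 0.05 over all tested genes in edgeR's quasi-likelihood test.

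RAB27B, the member for which the set was chosen, was counted 31, 23 and 33 times in the NTC libraries and 134 and 173 times in the sgJUN#1 libraries. On the CPM scale these are levels of 8.53, 9.36 and 7.32 in NTC and of 27.7 and 61.9 in sgJUN#1. The NTC libraries lay within 1.28-fold of each other, both sgJUN#1 libraries lay above all of them, and sgJUN#1 replicate 2 was 2.24-fold above replicate 1. The mean level was 8.40 ± 1.03 CPM (SD, n = 3) in NTC and 44.8 ± 24.2 CPM (SD, n = 2) in sgJUN#1, a ratio of means of 5.33 and a log2 fold change of 2.41 (SE 0.35). Exact 95% Poisson intervals for the count alone reached at most 14.1 CPM in an NTC library and began at 23.2 and 53.0 CPM in the sgJUN#1 libraries; since no molecular identifiers are described, these intervals cover counting error only. In order of log2 fold change RAB27B stood at place 27 of 13616. In bulk RNA, more cells that express a gene and more RNA per cell cannot be told apart, and this holds for each value given here.

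**Figure D1:**
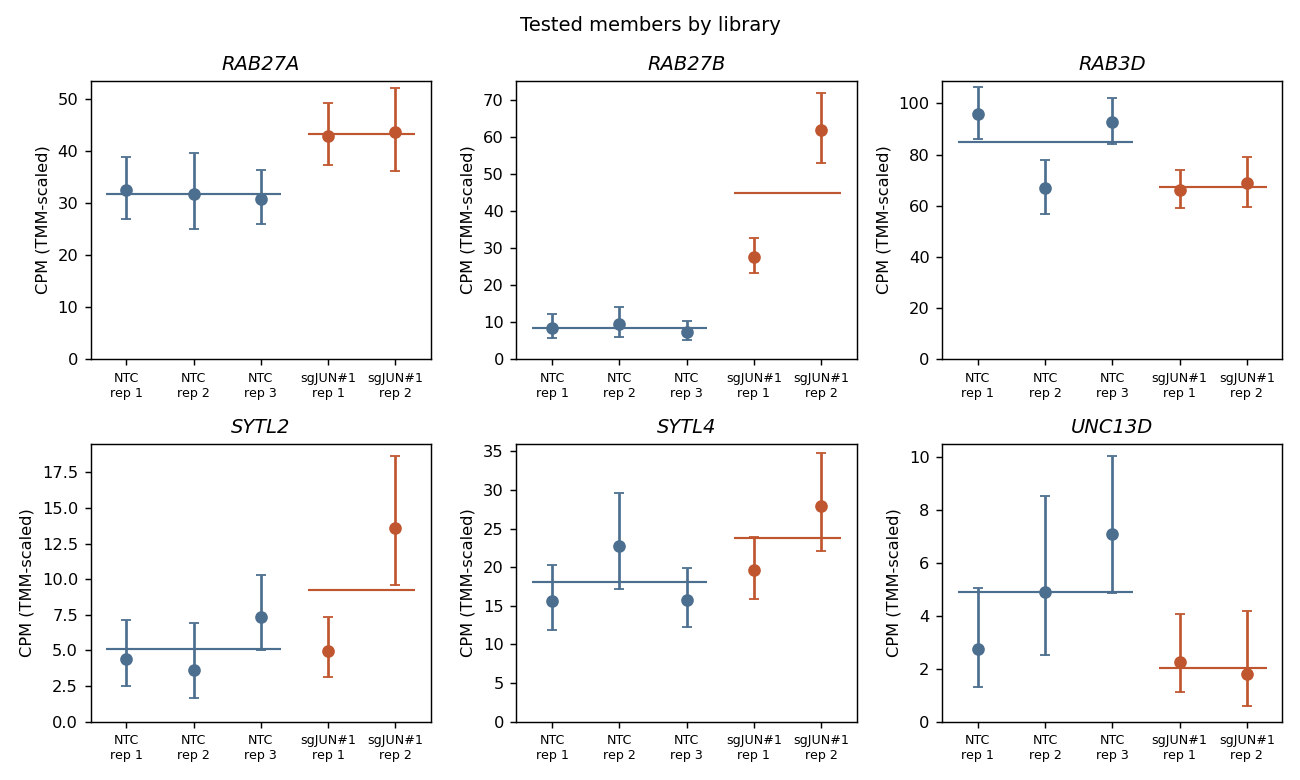
Level of each of the 6 tested members in the 3 NTC libraries (blue) and the 2 sgJUN#1 libraries (orange), in counts-per-million scaled to TMM library sizes, with exact 95% Poisson intervals (counting error only) and horizontal lines at the group means. RAB27B lies between 7.32 and 9.36 CPM in NTC, compared with 27.7 and 61.9 CPM in sgJUN#1, RAB27A is separated by a smaller step, and the groups overlap for RAB3D, SYTL2 and SYTL4.

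Of the 6 tested members 1, RAB27B, passed the threshold, while 0.206% of all tested genes did (28 genes: 0.0808% higher, or 11 genes, and 0.125% lower, or 17). Since the contrast chose RAB27B, nothing is read from this count. The call was lost without NTC replicate 1, without NTC replicate 2 and without sgJUN#1 replicate 2, with 0 members past the threshold in each of these 3 fits, and it was also lost with limma-voom, with scaling to library size alone and with a minimum of 10 counts in every library. The log2 fold change itself stayed between 1.73, without sgJUN#1 replicate 2, and 2.89, without sgJUN#1 replicate 1, over 13 alternatives. Among all genes tested in a fit, the share past the threshold was 0.147% with limma-voom, 0.14% with library size alone and 0.152% with the minimum of 10 counts, where 0 members passed. It was 1.06% with DESeq2, 0.162% with upper-quartile scaling, 0.213% with RLE scaling, 0.756% without a filter and 0.756% with a replicate block, where 1 member passed. With 1 library left out it was 0.0742% (NTC replicate 1), 0.413% (NTC replicate 2), 0.439% (NTC replicate 3), 0.224% (sgJUN#1 replicate 1) and 0.169% (sgJUN#1 replicate 2).

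**Figure D2:**
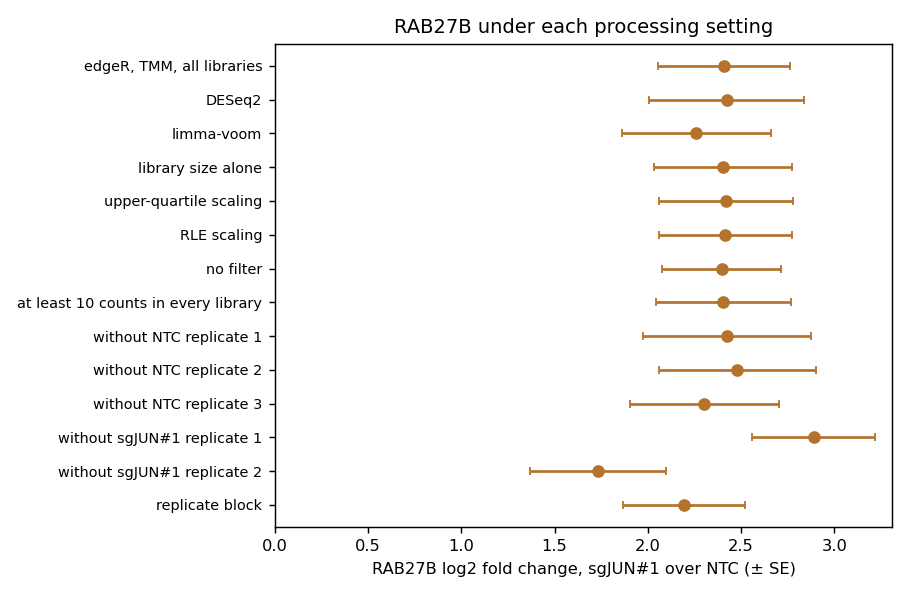
Log2 fold change of RAB27B (sgJUN#1 over NTC, bars ± SE) under the reported fit and 13 alternatives, one row each. All estimates lie to the right of 0, and those without sgJUN#1 replicate 2 (1.73) and without sgJUN#1 replicate 1 (2.89) are the lowest and the highest.

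RAB27A, the broadly expressed paralog of RAB27B, was at 32.5, 31.8 and 30.8 CPM in the NTC libraries, compared with 42.9 and 43.7 CPM in the sgJUN#1 libraries. Both groups were tight and did not overlap, with means of 31.7 ± 0.814 CPM (SD, n = 3) and 43.3 ± 0.509 CPM (SD, n = 2). The log2 fold change was 0.45 (SE 0.20), which did not pass the threshold (edgeR adjusted p = 0.601). The spread of RAB27A within groups, a pooled SD of 0.03 on the log2 scale, was below the 0.29 that was the median over all tested genes, whereas its Poisson intervals, 26.9 to 38.9 CPM in NTC replicate 1 and 37.3 to 49.2 CPM in sgJUN#1 replicate 1, overlapped in part. Without overlap between groups were 25% of all tested genes, 12.2% with both sgJUN#1 libraries above and 12.8% with both below. PIGB, a gene on the opposite strand that shares 154 bases with RAB27A away from its 3′ end, was named after its values were seen and was at 29.4 ± 2.51 and 30.1 ± 4.01 CPM (log2 fold change 0.02, edgeR adjusted p = 0.987).

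The balance of the RAB27 pair is given as the share of RAB27B in the RAB27A and RAB27B counts of one library, with exact Clopper-Pearson 95% intervals. It was 20.8% (14.6 to 28.2), 22.8% (15.0 to 32.2) and 19.2% (13.6 to 25.9) in NTC replicates 1 to 3. In sgJUN#1 replicates 1 and 2 it was 39.2% (34.0 to 44.6) and 58.6% (52.8 to 64.3). RAB27A thus held most RAB27 counts in the 3 NTC libraries and in sgJUN#1 replicate 1, and RAB27B in sgJUN#1 replicate 2. The mean share was 20.9% ± 1.80 (SD, n = 3) against 48.9% ± 13.8 (SD, n = 2). Summed over both paralogs, the level was 40.1 ± 1.67 CPM in NTC and 88.1 ± 24.7 CPM in sgJUN#1, a ratio of 2.20. Share and sum both use RAB27B and are descriptions.

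**Figure D3:**
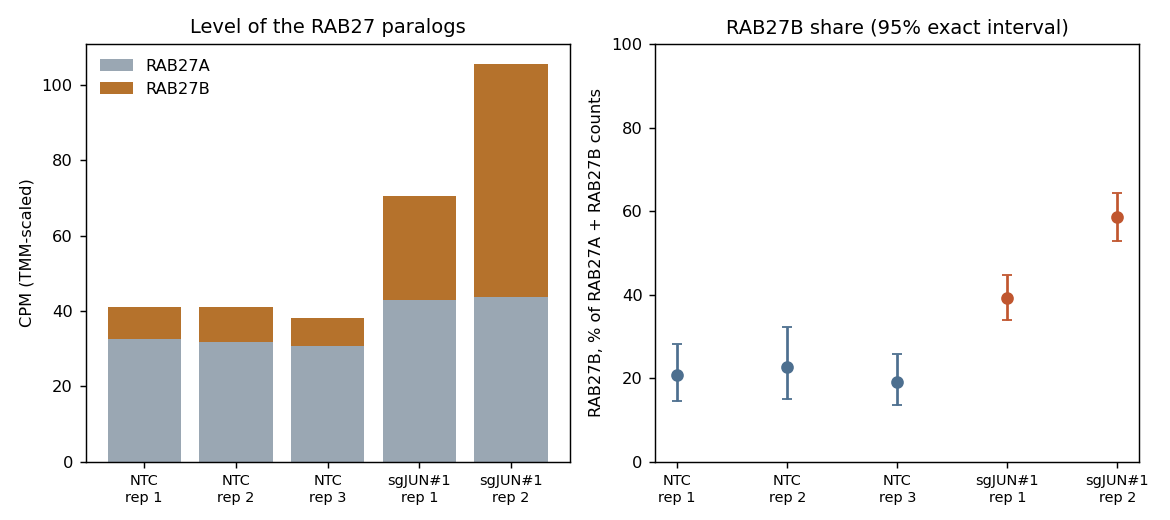
Left, stacked bars of RAB27A (grey) and RAB27B (brown) in counts-per-million (TMM-scaled) for each library; right, RAB27B as a percentage of the counts of both genes with exact 95% intervals. RAB27A stays between 30.8 and 43.7 CPM, and the RAB27B share goes from 19.2 to 22.8% in NTC to 39.2 and 58.6% in sgJUN#1.

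The genes next to RAB27B on the chromosome give its surroundings. No gene of the table overlaps it. CCDC68, which begins 5993 bases after the end of RAB27B and is on the reverse strand, was at 13.01 ± 2.35 CPM in NTC and 10.8 ± 1.49 CPM in sgJUN#1 (log2 fold change -0.28, edgeR adjusted p = 0.849), and the groups overlapped. DYNAP, 118367 bases before it, had 1 count in all 5 libraries together.

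Within the RAB3 branch, whose proteins regulate release from neuronal and endocrine granules, RAB3D was the only member above the filter. RAB3D, known from exocrine zymogen granules, was at 95.7, 66.8 and 92.7 CPM in NTC, compared with 66.3 and 68.7 CPM in sgJUN#1. NTC replicate 2 was as low as the sgJUN#1 libraries, so the groups overlapped, at means of 85.1 ± 15.9 CPM (n = 3) and 67.5 ± 1.73 CPM (n = 2). The log2 fold change was -0.34 with an SE of 0.22 (edgeR adjusted p = 0.738). RAB3D took 97.6% to 99.4% of the RAB3A, RAB3B and RAB3D counts of a library and had the highest level of the 10 members in every library. These counts need care: TSPAN16, on the opposite strand at chr19:11406815-11437672, shares 4929 bases that include the 3′ end of RAB3D (chr19:11432744-11456946), and the RAB3D count was 92.1% to 94.7% of the TSPAN16 count in each of the 5 libraries. Whether the counting used strand is not given in the sources used here, and without it reads of the pair cannot be told apart. TMEM205, on the same strand as RAB3D, shares 3495 bases away from the 3′ end of RAB3D, where strand would not separate reads. TMEM205 was at 18.2 ± 1.23 CPM in NTC and 17.4 ± 2.17 CPM in sgJUN#1. TSPAN16, TMEM205, and below SRPX2, RAB3C, EPCAM, CD68 and the other single markers, are named after their values were seen.

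RAB3A, the main synaptic vesicle form, was counted 1, 0 and 2 times in NTC and 3 and 0 times in sgJUN#1. RAB3B, a form of neuroendocrine and some epithelial cells, was counted 4, 1 and 6 times in NTC and 5 and 2 times in sgJUN#1. Both were at or near the detection limit in both groups, and no difference was detectable at this depth. RAB3C, which belongs to the same branch but not to the set, passed the filter and had a log2 fold change of -0.35 (edgeR adjusted p = 0.853).

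The SYTL effectors, which link RAB27 to membranes and the exocytic site, were low. SYTL4 (granuphilin), the docking effector of insulin and other dense-core granules, was at 15.7, 22.8 and 15.8 CPM in NTC, compared with 19.6 and 27.9 CPM in sgJUN#1. The groups overlapped, with means of 18.1 ± 4.09 and 23.8 ± 5.87 CPM and a log2 fold change of 0.40 with an SE of 0.28 (edgeR adjusted p = 0.759). SYTL4 took 62.8% to 86.2% of the SYTL1, SYTL2, SYTL4 and SYTL5 counts of a library. Its 3′ end (chrX:99926780-99987110, reverse strand) lies within SRPX2 (chrX:99899192-99930785, forward strand), with 4006 bases in common, so part of its counts may belong to the partner. Unlike RAB3D and TSPAN16 the counts of this pair were not in a fixed ratio, SYTL4 being 83.9% to 243.5% of SRPX2, and SRPX2 was at 11.5 ± 2.32 CPM in NTC and 25.7 ± 10.7 CPM in sgJUN#1 (log2 fold change 1.12, edgeR adjusted p = 0.338).

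SYTL2, an effector of epithelial apical secretion and melanosome anchoring at chr11:85405267-85522202 (reverse strand), was at 4.40, 3.66 and 7.32 CPM in NTC, compared with 4.95 and 13.6 CPM in sgJUN#1. Only sgJUN#1 replicate 2 exceeded the NTC range, and replicate 1 lay inside it. The log2 fold change of 0.75 with an SE of 0.50 (edgeR adjusted p = 0.744) turned to -0.08 without sgJUN#1 replicate 2. SYTL1 had 5, 0 and 7 counts in NTC and 6 and 2 in sgJUN#1, and SYTL5 had 2, 0 and 2 counts against 4 and 1. For both, counts were too few in either group for a difference to be detectable. The sum of the 4 SYTL genes was 24.5 ± 2.28 CPM in NTC and 34.6 ± 11.3 CPM in sgJUN#1.

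UNC13D, the priming factor that is needed for cytotoxic granule release, was the member with the lowest log2 fold change. At chr17:73823306-73840866 (reverse strand), it had 10, 12 and 32 counts in NTC and 11 and 5 counts in sgJUN#1, which are levels of 2.75, 4.88 and 7.10 CPM against 2.27 and 1.79 CPM. Both sgJUN#1 libraries were below all NTC libraries, which themselves differed 2.58-fold. The means were 4.91 ± 2.17 CPM (n = 3) and 2.03 ± 0.340 CPM (n = 2), and the log2 fold change of -1.25 (SE 0.53) did not pass the threshold (edgeR adjusted p = 0.575; unadjusted p = 0.0425). An unadjusted p under 0.05 was found for 8.38% of all tested genes, 4.02% higher and 4.36% lower. Of the 5 tested members other than RAB27B, 1 had both sgJUN#1 libraries above all NTC libraries (RAB27A) and 1 had both below (UNC13D). Of all tested genes 12.2% had both above and 12.8% both below, so nothing is read from these counts.

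Apart from RAB27B, then, 0 of 5 tested members passed the threshold, 1 of them (UNC13D) had an unadjusted p under 0.05, and the smallest adjusted p among the 62 values these 5 genes had in the alternatives was 0.429. The order of mean NTC levels among tested members was RAB3D, RAB27A, SYTL4, RAB27B, SYTL2 and UNC13D, and the ranges of neighbours overlapped for SYTL2 and UNC13D and touched for RAB27B and SYTL2, both at 7.32 CPM in NTC replicate 3. In sgJUN#1 the levels of RAB27B, 27.7 and 61.9 CPM, lay on either side of the 42.9 and 43.7 CPM of RAB27A. Summed over the 10 members the level was 156 ± 14.02 CPM in NTC and 193 ± 36.7 CPM in sgJUN#1. That sum uses RAB27B and is a description. Without RAB27B it ranged from 130.2 to 157.5 CPM in NTC and from 139.7 to 157.4 CPM in sgJUN#1.

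RAB27B was also placed among all RAB GTPases, since other RABs act at the same organelles. Of 48 tested RAB genes it had the highest log2 fold change, RAB27A stood at place 7 and RAB3D at place 43. Since the contrast chose RAB27B, its place is a description from which nothing is read. None of the 45 RABs outside the set passed the threshold; 5 had an unadjusted p under 0.05, all higher in sgJUN#1, where 4.02% of all tested genes were, and over the 45 genes the median was 0.12 on the log2 scale, beside -0.01 over all tested genes. RAB31, a RAB22-like form of the trans-Golgi network and endosomes, was next after RAB27B at 11.8, 14.7 and 15.5 CPM in NTC and 25.2 and 56.9 CPM in sgJUN#1 (log2 fold change 1.53, SE 0.35, edgeR adjusted p = 0.195). As with RAB27B, both sgJUN#1 libraries were above all NTC libraries and replicate 2 was above replicate 1. RAB38, a RAB of melanosomes and lysosome-related organelles named after its values were seen, was at 12.1, 12.6 and 7.54 CPM in NTC, compared with 24.2 and 27.2 CPM in sgJUN#1 (log2 fold change 1.27, SE 0.29, edgeR adjusted p = 0.200). At the other end stood RAB4B, of recycling endosomes, with 3.60 ± 1.09 and 2.54 ± 0.964 CPM (log2 fold change -0.57, edgeR adjusted p = 0.803). RAB31 passed the threshold with DESeq2 and without sgJUN#1 replicate 1, and RAB31 and RAB38 did so without an expression filter.

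**Figure D4:**
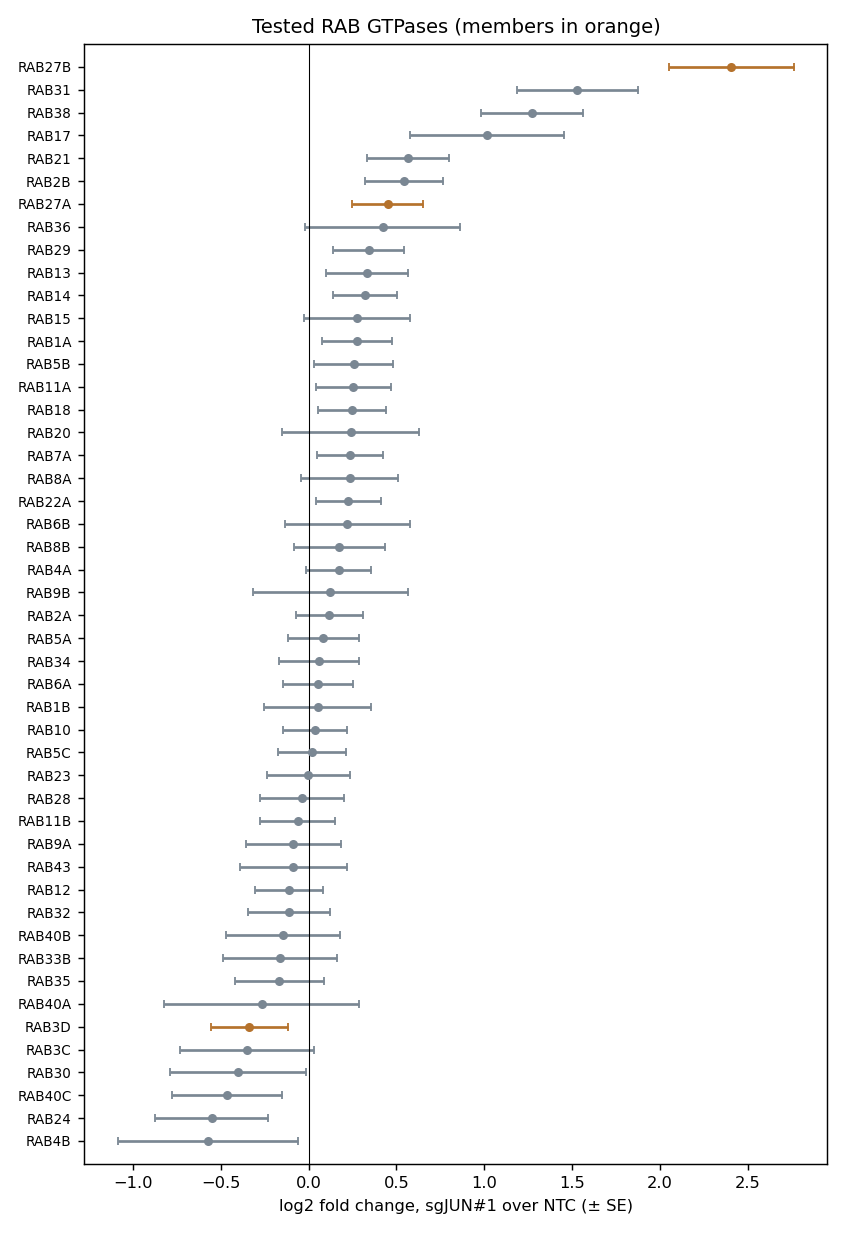
Log2 fold change (sgJUN#1 over NTC, bars ± SE) of the 48 tested RAB GTPases in descending order, with the members RAB27B, RAB27A and RAB3D in orange and the others in grey. RAB27B, which was chosen for this difference, is at the top at 2.41, followed by RAB31 at 1.53 and RAB38 at 1.27. Most others lie near 0.

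The proteins that load, prenylate and switch off these GTPases were measured in 13 of 15 listed genes, of which none passed the threshold, with 1 higher and 2 lower at an unadjusted p under 0.05 (4.02% and 4.36% of all tested genes) and a median log2 fold change of 0.15. CHML (REP2), an escort that presents RABs for prenylation, was at 97.9, 83.4 and 95.6 CPM in NTC, compared with 55.7 and 36.9 CPM in sgJUN#1. Both sgJUN#1 libraries were below the NTC range, and the log2 fold change was -0.99 with an SE of 0.23 (edgeR adjusted p = 0.213). CHML passed the threshold in the fit without an expression filter. RABGGTA, the alpha subunit of the transferase that carries out the prenylation, was at 9.05 ± 2.45 CPM in NTC and 15.6 ± 0.758 CPM in sgJUN#1 (log2 fold change 0.81, edgeR adjusted p = 0.509).

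Among 13 other effectors of RAB27 and RAB3, 10 were tested and none passed, with a median log2 fold change of 0.22. At an unadjusted p under 0.05, 1 was higher and 2 were lower, beside 4.02% and 4.36% of all tested genes. Melanophilin, MLPH, which ties RAB27A to myosin Va, was highest at 7.98, 14.7 and 3.77 CPM in NTC and 20.4 and 21.1 CPM in sgJUN#1 (log2 fold change 1.31, SE 0.45, edgeR adjusted p = 0.459). Rabphilin, RPH3A, was lowest at 6.41 ± 1.99 against 3.16 ± 0.0878 CPM (log2 fold change -1.01, edgeR adjusted p = 0.580). MLPH and RPH3A, named as the extremes of the list, had both sgJUN#1 libraries outside the NTC range. Of the 10 tested genes 2 had both above and 2 both below, beside 12.2% and 12.8% of all tested genes.

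Genes of fusion and tethering follow. Of 19 SNARE and SM genes of the plasma membrane 15 were tested and none passed. At an unadjusted p under 0.05, 2 were higher and 0 were lower, beside 4.02% and 4.36% of all tested genes. The median log2 fold change was 0.06. The highest was 1.22 for the t-SNARE STX1A, which was low at 2.22 ± 0.761 and 5.16 ± 0.292 CPM (edgeR adjusted p = 0.500). All 8 exocyst subunits, the complex that tethers vesicles before fusion, were tested, and they ranged from -0.42 for EXOC6 to 0.31 for EXOC7 with none at an unadjusted p under 0.05. Of 21 calcium sensors and priming factors only 7 were tested, from -1.06 for SYT15 (20.7 ± 8.57 to 10.0 ± 0.477 CPM, edgeR adjusted p = 0.454) to 0.90 for the SNARE regulator CPLX1 (edgeR adjusted p = 0.780), whose sgJUN#1 libraries had 34 and 2 counts. Of these 7 genes, 0 were higher and 1 was lower at an unadjusted p under 0.05.

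Genes of extracellular vesicles, whose release RAB27 proteins promote, were tested in 10 of 11 cases. Their median log2 fold change was 0.30, beside -0.01 over all tested genes, and none passed the threshold. Of these 10 genes 9 were above 0, beside 6669 of all 13616 tested genes. At an unadjusted p under 0.05, 1 was higher and 0 were lower, beside 4.02% and 4.36% of all tested genes. CD63, the tetraspanin of late endosomes and exosomes, was the highest at 651, 606 and 599 CPM in NTC and 952 and 981 CPM in sgJUN#1 (log2 fold change 0.64, SE 0.17, edgeR adjusted p = 0.281). The groups did not overlap and each was tight, at 619 ± 28.1 and 967 ± 21.0 CPM. CD81, a tetraspanin of the plasma membrane, was the lowest at 116 ± 13.1 and 104.5 ± 8.01 CPM (log2 fold change -0.16, edgeR adjusted p = 0.877).

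**Figure D5:**
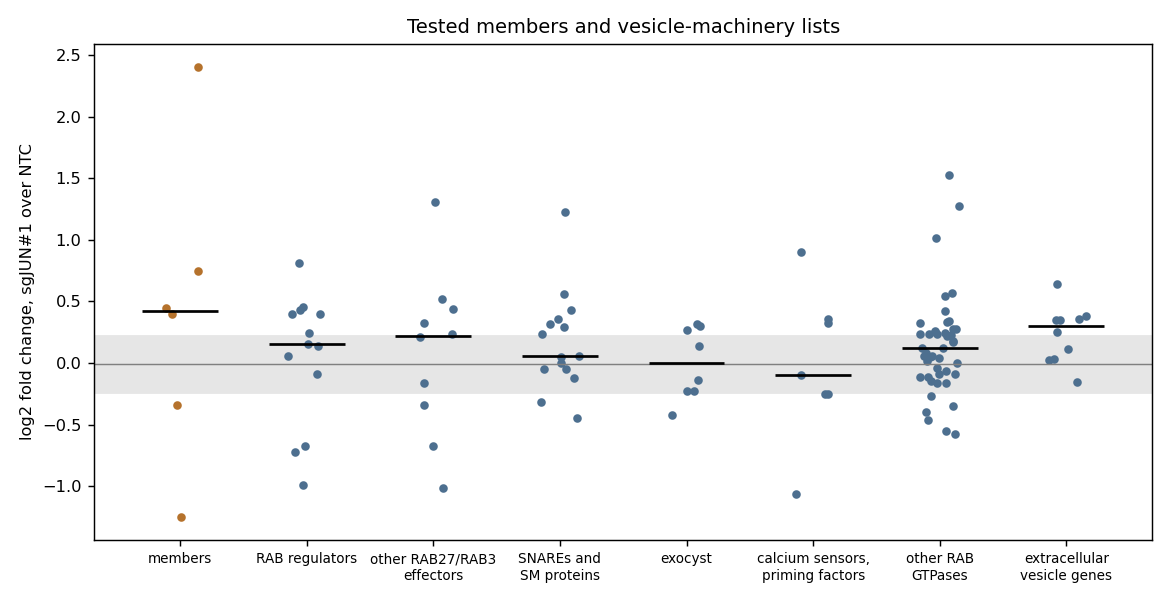
Log2 fold change (sgJUN#1 over NTC) of the 6 tested members (brown) and of the tested genes of 7 vesicle-machinery lists (blue), one point per gene with black bars at the list medians; the grey line and band are the median and the interquartile range of all tested genes. RAB27B, which was chosen for this difference, is at 2.41, above the other members and above all listed genes, of which RAB31 at 1.53 is highest.

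Over the 7 lists together, which hold no member, 108 of 143 genes were tested and none passed the threshold, whereas 10 were higher and 5 lower at an unadjusted p under 0.05, beside 4.02% and 4.36% of all tested genes. Their median log2 fold change was 0.14. In 29 of the 108 both sgJUN#1 libraries were above all NTC libraries and in 9 they were below, beside the 12.2% and 12.8% of all tested genes given above. The smallest edgeR adjusted p among these 108 genes in the reported fit was 0.195, that of RAB31.

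To name the genes most like RAB27B, each tested gene's log2 CPM was centred on its NTC mean and compared with RAB27B over the 5 libraries by root-mean-square distance. TENT5A, a nucleotidyltransferase-family gene (distance 0.19), CD24 (0.19), UGP2 (0.27) and the long noncoding RNA LINC01133 (0.33) were among the 5 nearest, and the remaining one is not described. CD24, a surface glycoprotein, was at 52.0, 65.9 and 63.4 CPM in NTC and 183 and 358 CPM in sgJUN#1, but it has near-identical copies in the genome and its counts are uncertain. UGP2, which makes UDP-glucose, was at 74.0, 138 and 69.0 CPM in NTC and 273 and 583 CPM in sgJUN#1. Their likeness to RAB27B over these libraries is what chose them. JUN was at distance 0.89 (place 184), and RAB27A at 1.19 (place 1121).

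Markers of other cell types and states were read beside these values. Summed epithelial markers ranged from 469 to 952 CPM in NTC and from 746 to 1175 CPM in sgJUN#1, with 0 of 9 past the threshold. Of this list, EPCAM had the highest log2 fold change, 2.44 (edgeR adjusted p = 0.210), and was higher in sgJUN#1 replicate 1 (144 CPM) than in replicate 2 (56.5 CPM), the reverse of RAB27B. The log2 fold change was above 0 for 5 of these markers and below 0 for 4, which were KRT14 (-1.16, both sgJUN#1 libraries below all NTC libraries), KRT5 (-0.40), KRT8 (-0.36) and TP63 (-0.11). Dense-core granule markers of neuroendocrine cells summed to 34.1 to 90.4 CPM in NTC and 56.5 to 74.7 CPM in sgJUN#1, with 4 of 9 tested, none past the threshold and the defining granin CHGA at 0 in all 5 libraries. The granin-family member SCG5 had 46, 145 and 50 counts in NTC and 223 and 57 in sgJUN#1, while SCG2 had at most 10 counts and CHGB at most 6 in a library. Leukocyte markers summed to 6.21 to 8.95 CPM against 11.8 to 17.9 CPM, mostly from the lysosomal CD68, the only one tested, while CD3E and PRF1 were at 0 in every library. The pan-leukocyte marker PTPRC had 2, 1 and 10 counts in NTC and 0 and 4 in sgJUN#1, and LYZ had 0, 1 and 3 against 2 and 1. Fibroblast markers (190 to 299 CPM against 180 to 217.5 CPM, mostly PDGFRA) and endothelial markers (9.35 to 12.2 CPM against 7.87 to 9.91 CPM) were not above the NTC range in sgJUN#1. The part of any of these in the RAB27B values was not tested.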

How the data were processed

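From column-purified RNA the authors prepared QuantSeq 3′ mRNA-Seq FWD libraries and, per the labels, used cutadapt 4.2, Bowtie2 2.3.5.1 and build hg19. Per the study's methods, reads over genes were counted in R. The table was deposited as whole-number counts for each gene, without normalisation. Annotation, use of strand and molecular identifiers are not given in the sources used here, so overlapping genes can share reads and PCR copies may count as reads.

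Entrez identifiers were matched to RefSeq symbols (23308 of 23459, 99.36%), and positions were those of GENCODE on GRCh37. Counts were fitted with edgeR 4.0.16 in R 4.3.3 (filterByExpr, TMM, robust quasi-likelihood F test, Benjamini-Hochberg over 13616 genes, group as the only term; 9843 genes fell under the filter). The biological coefficient of variation was 22.3%, and libraries of a group differed beyond counting noise (chi-square per degree of freedom at least 7.62), so none was treated as a repeat deposit of another; this does not tell technical from biological replicates. Alternatives were DESeq2 1.42.0, limma-voom (limma 3.58.1), other scalings and filters, a replicate block and leaving out each library. The procedure was tested on simulated data. Profiles were computed on log2 CPM (prior count 2). The named genes are the members, JUN, the highest, lowest and called genes of each list, the 5 nearest profiles and the flanking genes of RAB27B; exceptions are stated, and 1 gene that this rule names is not reported here. The members and lists were chosen with earlier results of these data known.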

Additional observations from a re-analysis of the deposited data

How the results depend on the processing

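The 1 member past the threshold was RAB27B, for which the set was chosen, so nothing is read from this count or its changes. The count fell to 0 with limma-voom, with library size alone, and with a 10-count minimum per library. It was also 0 without NTC replicate 1 and without NTC replicate 2. Tested genes past the threshold numbered 28, and 145 with DESeq2, 148 without an expression filter, 18 with the 10-count minimum, and 10 to 57 when 1 library was left out. Genes of the vesicle lists past the threshold numbered 0, and 1 with DESeq2 (RAB31), 4 without a filter (RAB31, CHML, RAB38 and SYT7), and 0 to 1 when 1 library was left out. The RAB27B log2 fold change of 2.41 went from 1.73 to 2.89 when 1 library was left out, SYTL2 reversed from 0.75 to -0.078 without sgJUN#1 replicate 2 (range -0.078 to 1.36), and the group difference in the RAB27B share, 28.0 percentage points, went from 18.3 to 37.7. JUN passed the threshold with DESeq2 (log2 fold change 3.24, adjusted p = 3.84e-11), with limma-voom (3.47, adjusted p = 0.0342), and without NTC replicate 2 or NTC replicate 3 (range 2.85 to 3.68). The causes of these changes were not tested. The groups share replicate numbers 1 and 2, but the replicate differences of the 2 groups were uncorrelated over genes (0.01), so no pairing was assumed. With a replicate block 103 tested genes passed the threshold, and the count of members past it stayed at 1. RAB27B was then at 2.20 and JUN at 2.82 (edgeR adjusted p = 1.15e-04). NTC replicate 3 has no sgJUN#1 library of its number, so it adds nothing to the contrast in the block fit. UNC13D gave no value without NTC replicate 3, and UNC13D and SYTL2 gave none with the 10-count minimum. With 2 libraries in the sgJUN#1 group, and under 10 counts per library for RAB3A, RAB3B, SYTL1 and SYTL5, only large differences could be seen at this depth.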
